A study of Homo sapiens with 15 samples.

Results

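Chemokines, their receptors and the oxysterol receptor GPR183 were followed in MOLM-14, a line of human acute myeloid leukemia (AML) cells with an MLL fusion. The members were every gene in the deposited table named as a CC, CXC, XC or CX3C chemokine ligand or as a CC, CXC, XC or CX3C receptor, together with ACKR3, CCRL2, CMKLR1 and GPR183, and they came to 66 of 57964 entries (44 ligands and 22 receptors). RNA-Seq was done on 2 libraries in each of 4 groups, all harvested at 6 h. Cells were electroporated with 100 nM GFP IVT RNA or 100 nM NR4A1 IVT RNA, or were left without electroporation and given vehicle (DMSO) or 10 uM DHE (dihydroergotamine). GFP RNA was the control for NR4A1 RNA, and vehicle was the control for DHE. All 4 groups come from 1 cell line, and the sources used here do not say whether the 2 libraries of a group came from separate cultures. The p-values thus measure only the spread between libraries of a group, which may be technical. That spread was pooled over all 4 groups and moderated with that of all genes tested. It was wider with GFP RNA and DHE than with NR4A1 RNA and vehicle. Genes were called where the Benjamini-Hochberg adjusted p from limma, over the 14367 genes tested, was under 0.05 and the change exceeded 1.5-fold.

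Chemokines are small secreted proteins that attract leukocytes along a gradient, and they are sorted by the spacing of their first cysteines into CC, CXC, XC and CX3C families. Most of their receptors are G protein-coupled and signal through inhibitory G proteins, while atypical receptors such as ACKR3 and CCRL2 take up or present ligands without that signal. GPR183, also called EBI2, is not a chemokine receptor but directs the migration of lymphocytes and myeloid cells toward dihydroxylated oxysterols, and in AML the receptor CXCR4 is known for holding leukemic cells in the marrow through its ligand CXCL12.

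Promoter windows are shown for 5 genes: GPR183, CCL24 and CCR2, which were called in both treatments, CXCR4, which was called with NR4A1 RNA, and CCRL2, the only member with a match to the NBRE, the element that NR4A receptors bind as monomers. They are the 250 bases before the start site farthest upstream, from RefSeq on build GRCh38.p14, written 5′ to 3′ on the strand of the gene, with capitals marking matches to the 5 motifs searched.
GPR183 chr13:99307400-99307649, minus strand: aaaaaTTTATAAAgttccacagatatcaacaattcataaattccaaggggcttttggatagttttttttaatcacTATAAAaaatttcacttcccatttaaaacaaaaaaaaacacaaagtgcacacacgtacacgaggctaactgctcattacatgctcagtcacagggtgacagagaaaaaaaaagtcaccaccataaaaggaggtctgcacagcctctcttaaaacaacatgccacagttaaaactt
CCL24 chr7:75823373-75823622, minus strand: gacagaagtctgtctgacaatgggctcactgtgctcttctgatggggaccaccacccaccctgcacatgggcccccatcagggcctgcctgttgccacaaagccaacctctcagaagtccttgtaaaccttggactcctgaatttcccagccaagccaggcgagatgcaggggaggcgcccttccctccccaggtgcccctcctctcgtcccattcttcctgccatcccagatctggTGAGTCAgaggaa
CCR2 chr3:46353861-46354110, plus strand: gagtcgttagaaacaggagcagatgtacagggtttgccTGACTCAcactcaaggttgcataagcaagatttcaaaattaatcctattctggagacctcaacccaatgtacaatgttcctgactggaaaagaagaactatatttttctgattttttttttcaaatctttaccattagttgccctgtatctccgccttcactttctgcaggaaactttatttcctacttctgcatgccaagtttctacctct
CXCR4 chr2:136118150-136118399, minus strand: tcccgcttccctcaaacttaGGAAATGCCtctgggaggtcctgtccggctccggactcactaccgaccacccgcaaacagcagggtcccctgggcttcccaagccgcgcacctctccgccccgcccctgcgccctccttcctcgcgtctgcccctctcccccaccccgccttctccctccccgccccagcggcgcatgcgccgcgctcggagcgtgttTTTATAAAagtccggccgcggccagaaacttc
CCRL2 chr3:46407009-46407258, plus strand: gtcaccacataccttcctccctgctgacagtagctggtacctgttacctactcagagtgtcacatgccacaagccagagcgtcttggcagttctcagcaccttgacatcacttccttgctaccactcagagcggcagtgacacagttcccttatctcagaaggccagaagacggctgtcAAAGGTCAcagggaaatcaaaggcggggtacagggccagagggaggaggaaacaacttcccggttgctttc

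RefSeq promoter entries matched 48 of the 66 members, with 63 start sites between them, each covering 250 bases before and 50 bases after the start. CCL5 and CXCL16 were the 2 expressed members without an entry. The NBRE (AAAGGTCA, both strands) was found in 1 of the 63 entries (1.59%) against 1.22% of 35116 entries of all genes, and that match lies in CCRL2 with its first base 71 bases before the start. The kappa B motif (GGNNNTTCC) was found in 25.4% of the members' entries against 20.1% of all, the AP-1 motif (TGANTCA) in 15.9% against 7.71%, the CRE (TGACGTCA) in 0 against 1.85%, and TATAAA in 30.2% against 11.5%, each on both strands. Most entries belong to members too scarce to test. Of the 17 entries of tested members, 2 held the kappa B motif, 3 AP-1, 3 TATAAA, and 0 the NBRE or the CRE. No searched motif is contained in another, although matches can overlap. In the windows printed, the capitals are TATAAA matches in GPR183 and, near the start, in CXCR4, an AP-1 match in CCL24 and in CCR2, a kappa B match at the distal end of CXCR4, and the NBRE match in CCRL2. A match of letters is a description and does not show binding.

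NR4A1 itself, counted with the introduced RNA, stood at 719 and 674 TPM in the NR4A1 libraries and at 1.27 to 2.84 TPM in the other 6. With DHE it stood at 1.43 and 1.67 TPM against 1.27 and 1.70 TPM with vehicle (log2 fold change 0.04; limma adjusted p = 0.84). TPM, an abundance scaled to the same total in every library, is a share of the RNA per unit of transcript length, so levels can be set side by side between genes, but it keeps no read counts and the depth of each library is unknown. Of 11 listed myeloid markers, 10 reached 1 TPM in at least 1 library and CD14 was at or under 0.0765 TPM, and their summed level was 301 to 379 TPM with GFP RNA, 405 to 428 with NR4A1 RNA, 451 to 459 with vehicle and 446 to 457 with DHE, whose part in the results was not tested. Of the listed markers of other lineages, those above 1 TPM were NCAM1, CD8A (with DHE only, 1.05 and 1.29 TPM), PAX5 and KRT8, while CD3E was at or under 0.0229 TPM and CD2 and HBB were listed at 0. The 2 libraries of a group differed more with GFP RNA and DHE (median absolute log2 difference 0.20 and 0.17) than with NR4A1 RNA and vehicle (0.078 and 0.077). Structural RNA took 54.9% of GFP replicate 1 against 41.0% to 45.9% of the others. DHE replicate 2 had 13934 entries at 1 TPM or more, against 12902 to 13174 in the others. In bulk RNA, fewer cells expressing a gene and less RNA per cell cannot be told apart.

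Few of the members were expressed. At least 1 TPM in at least 2 libraries, the level needed for testing, was reached by 13 members: the ligands CCL5, CCL22, CCL23, CCL24, CCL28, CXCL10 and CXCL16, and the receptors CCR1, CCR2, CXCR2, CXCR4, CX3CR1 and GPR183. CCL22 and CXCL16 reached it only in DHE libraries, CCL24 only in NR4A1 and DHE libraries, CXCL10 only in electroporated cells, and CXCR2 only in GFP and vehicle libraries, so for these the filter itself required a difference and a count of changed genes among the 13 supports nothing. CXCR3 and CCL20 reached 1.02 and 1.01 TPM in DHE replicate 2 alone. The other 51 members were under 1 TPM throughout, and 32 of the 66 never reached 0.1 TPM.

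**Figure D1:**
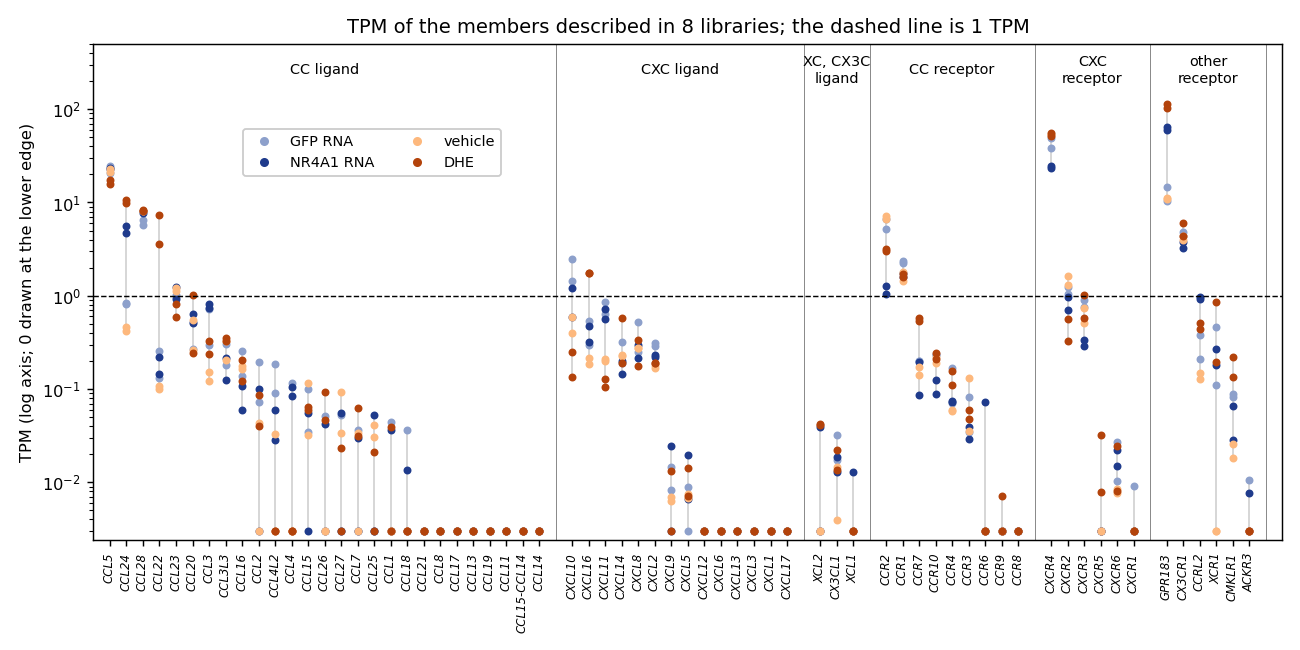
TPM of the members described (log axis, 0 drawn at the lower edge) in the 8 libraries, with 1 point per library colored by group, gray lines joining the lowest and highest library and a dashed line at 1 TPM. CXCR4 and CCL5 are high in every group, GPR183 is highest with NR4A1 RNA and DHE, and most members lie under the line.

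The 15 members listed at 0 in all 8 libraries were CCL8, CCL11, CCL13, CCL14, CCL15-CCL14, CCL17, CCL19, CCL21, CXCL1, CXCL3, CXCL6, CXCL12, CXCL13, CXCL17 and CCR8. A further 36 were detected but stayed under 1 TPM, among them the CC ligands CCL1, CCL2, CCL3, CCL3L3, CCL4, CCL4L2, CCL7, CCL15, CCL16, CCL18, CCL25, CCL26 and CCL27, the CXC ligands CXCL2, CXCL5, CXCL8, CXCL9, CXCL11 and CXCL14, the ligands XCL1, XCL2 and CX3CL1, the CC receptors CCR3, CCR4, CCR6, CCR7, CCR9 and CCR10, the CXC receptors CXCR1, CXCR5 and CXCR6, and XCR1, ACKR3, CCRL2 and CMKLR1. CCL3 and CCL3L3, and CCL4 and CCL4L2, are near-identical copies, so the division of reads within each pair is uncertain. CCL15-CCL14 is a read-through of the neighboring CCL15 and CCL14 genes.

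GPR183 had the highest level that any member reached. In electroporated cells it stood at 10.3 and 14.7 TPM (GFP RNA) and 64.5 and 60.1 TPM (NR4A1 RNA). Without electroporation it stood at 11.2 and 10.9 TPM (vehicle) and 103 and 115 TPM (DHE). Both treated groups lay above every control library, and the DHE libraries lay above the NR4A1 libraries. In scaled TPM (TPM divided by a median-of-ratios factor for the library), the mean with NR4A1 RNA was 4.85 times that with GFP RNA, and the mean with DHE was 9.72 times that with vehicle. The limma log2 fold changes of scaled TPM plus 0.5 were 2.24 (SE 0.10; adjusted p = 9.4e-04) and 3.22 (SE 0.10; adjusted p = 6.7e-05). GPR183 ranked 51 among rises with NR4A1 RNA and 30 among rises with DHE, out of 14367 genes tested.

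GPR183 lies at chr13:99946793-99959653 (GRCh37, minus strand) inside UBAC2, a gene of the opposite strand, and none of its annotated exons overlaps an exon of UBAC2. UBAC2 held 47.3 and 50.6 TPM in GFP libraries, 49.0 and 48.2 in NR4A1 libraries, 51.7 and 51.1 in vehicle libraries, and 41.2 and 45.0 in DHE libraries. The host gene was not called in either treatment (log2 fold change -0.06, adjusted p = 0.54, and -0.27, adjusted p = 0.016 from limma, below the 1.5-fold limit). The enzymes that make and remove the oxysterol ligands of GPR183 were scarce. CYP7B1, which adds a hydroxyl group in making the ligand, was listed at 0 in all libraries, CH25H, which makes its precursor, was detected in GFP replicate 2 alone (0.0124 TPM), and CYP27A1 was at most 0.157 TPM. HSD3B7, which removes the ligand, was measured at 0.954 and 1.34 TPM with DHE and between 0.381 and 0.586 TPM in the other 6 libraries. None of the 4 reached the level for testing.

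CXCR4 was the most abundant true chemokine receptor. The GFP libraries held 38.6 and 49.1 TPM of it and the NR4A1 libraries 24.4 and 23.6 TPM. The vehicle libraries held 53.6 and 52.3 TPM of it and the DHE libraries 52.0 and 56.1 TPM. The NR4A1 libraries lay below all 6 others, and the vehicle and DHE libraries overlapped. The mean scaled level with GFP RNA was 1.88 times that with NR4A1 RNA (log2 fold change -0.90, SE 0.07; limma adjusted p = 0.0024). For DHE over vehicle the log2 fold change was 0.01, with a 95% interval of -0.16 to 0.18 (adjusted p = 0.96 from limma). The DHE effect minus the NR4A1 effect was 0.90 (SE 0.10; limma adjusted p = 0.0054). This difference stayed under an adjusted p of 0.05 in 19 of 19 alternatives. Counts of alternatives for such differences, here and below, include the one with no fold limit. That one repeats the main fit, because these differences had no fold limit, so its outcome was fixed. Fitted on the GFP and NR4A1 libraries alone, the fall with NR4A1 RNA had a limma adjusted p of 0.051. CXCL12, the ligand of CXCR4, was among the members listed at 0.

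CCR2, the receptor of CCL2 that brings monocytes out of the marrow, fell in both treatments. In electroporated cells it stood at 5.15 and 6.64 TPM (GFP RNA) and 1.26 and 1.04 TPM (NR4A1 RNA). Without electroporation it stood at 7.20 and 6.70 TPM (vehicle) and 3.05 and 3.18 TPM (DHE). Treated and control libraries did not overlap in either experiment. The control mean in scaled TPM was 5.27 times the NR4A1 mean and 2.26 times the DHE mean, and the log2 fold changes were -2.00 (SE 0.11; limma adjusted p = 0.0013) and -1.06 (SE 0.11; limma adjusted p = 0.0012). The effect of DHE minus that of NR4A1 RNA was 0.94 (SE 0.15; limma adjusted p = 0.015), a smaller fall with DHE. That difference was called in 14 of 19 alternatives, and those in which it lost its call included leaving out NR4A1 replicate 2 or either vehicle library (highest limma adjusted p over the alternatives 0.076).

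CCR2 lies at chr3:46395355-46402431 (GRCh37, plus strand) in a cluster of receptor genes that also holds CCR9, CXCR6, XCR1, CCR3, CCR1 and CCRL2. CCR1, a receptor of CCL3, CCL5 and CCL23, was measured at 1.43 to 2.35 TPM and was not called (log2 fold change -0.41 for NR4A1 RNA, limma adjusted p = 0.12; 0.01 for DHE, limma adjusted p = 0.97). CCR1 lies on the opposite strand within the span of CCR3, with no exon in common, and CCR3 was at most 0.133 TPM. CCRL2 at the end of the cluster, the atypical receptor with the NBRE match printed above, reached 0.930 and 0.959 TPM in the NR4A1 libraries against 0.208 and 0.375 TPM in the GFP libraries. In DHE libraries it reached 0.446 and 0.513 TPM against 0.128 and 0.148 TPM in vehicle libraries. The treated libraries of CCRL2 lay above their controls in both experiments, but it stayed under 1 TPM. In the fit with no filter on low values, its log2 fold changes were 0.87 (limma adjusted p = 0.072) and 0.59 (limma adjusted p = 0.082).

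CXCR2, the neutrophil receptor of CXCL8 and CXCL1, fell with DHE. The vehicle libraries held 1.62 and 1.32 TPM of it and the DHE libraries 0.324 and 0.567 TPM. The GFP libraries held 1.04 and 1.23 TPM of it and the NR4A1 libraries 0.962 and 0.703 TPM. Neither treated group overlapped its control. The log2 fold change was -1.07 with DHE (SE 0.21; limma adjusted p = 0.011) and -0.34 with NR4A1 RNA (SE 0.21; limma adjusted p = 0.33). Without vehicle replicate 1 the fall with DHE was not called (limma adjusted p = 0.078). The neighboring CXCR1, 25590 bases away on chromosome 2, was detected in GFP replicate 1 alone, at 0.00921 TPM.

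CX3CR1, the receptor of fractalkine on monocytes, held 4.34 and 4.87 TPM in GFP libraries and 3.78 and 3.27 TPM in NR4A1 libraries. Without electroporation it stood at 4.41 and 3.95 TPM (vehicle) and 4.41 and 6.07 TPM (DHE). The GFP libraries lay above the NR4A1 libraries, and the vehicle and DHE ranges met at 4.41 TPM. It was called in neither treatment (log2 fold change -0.39, adjusted p = 0.090, and 0.26, adjusted p = 0.13, limma). The difference between the effects, 0.65, had a limma adjusted p of 0.041, but it was called in 7 of 18 alternatives. The 21 receptors other than GPR183 summed to 53.8 and 66.3 TPM in GFP libraries, 34.2 and 32.0 in NR4A1 libraries, 70.0 and 66.9 in vehicle libraries, and 63.7 and 71.3 in DHE libraries, and CXCR4 made up most of each sum.

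**Figure D2:**
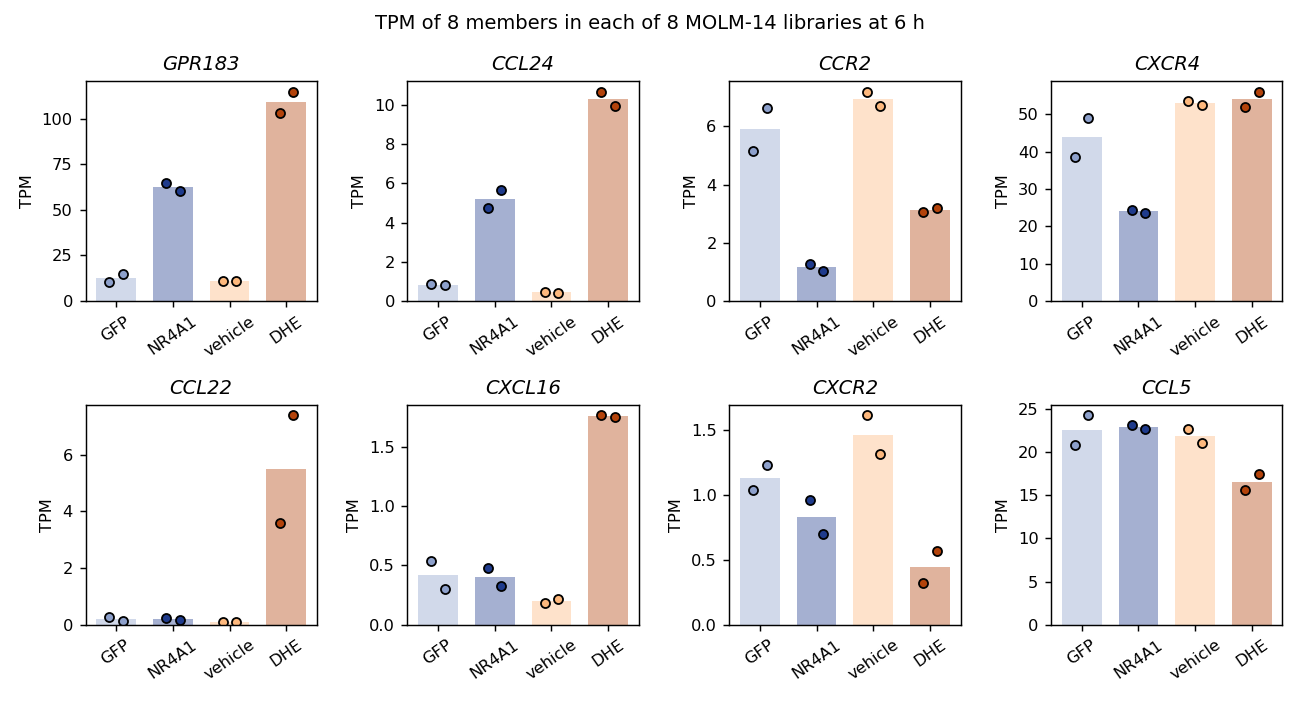
TPM (axis from 0) of 8 members in each library, with points for the 2 libraries of a group and bars for their mean. GPR183 and CCL24 are higher and CCR2 is lower in both treated groups, CXCR4 is lower with NR4A1 RNA, and CCL22 and CXCL16 are higher and CXCR2 is lower with DHE.

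Among the ligands, CCL24, an eotaxin that attracts eosinophils through CCR3, rose in both treatments. In electroporated cells it stood at 0.844 and 0.812 TPM (GFP RNA) and 4.73 and 5.65 TPM (NR4A1 RNA). The vehicle libraries held 0.468 and 0.422 TPM of it and the DHE libraries 10.7 and 9.93 TPM. The treated libraries lay above every control library, and the DHE libraries were the highest. The scaled means rose 6.05-fold with NR4A1 RNA (log2 fold change 2.07, SE 0.16; limma adjusted p = 0.0022) and 22.9-fold with DHE (3.47, SE 0.16; limma adjusted p = 9.4e-05). The 0.5 added to each value lowers the log2 fold change of such a scarce gene. CCL24 lies at chr7:75440143-75452674 (GRCh37, minus strand), and its only close neighbor among the members, CCL26, a second eotaxin 20929 bases away, was at most 0.0930 TPM. The receptor of both, CCR3, was as scarce as stated above.

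CCL22, a ligand of CCR4 that macrophages and dendritic cells release, rose with DHE. Without electroporation it stood at 0.108 and 0.101 TPM (vehicle) and 3.59 and 7.40 TPM (DHE). The GFP libraries held 0.256 and 0.132 TPM of it and the NR4A1 libraries 0.220 and 0.145 TPM. The 2 DHE libraries differed from each other more than for the other risers but lay above all 6 others, and the GFP and NR4A1 libraries overlapped. The DHE mean in scaled TPM was 50.7 times the vehicle mean (log2 fold change 3.18, SE 0.32; limma adjusted p = 0.0011), and with NR4A1 RNA the log2 fold change was -0.04, with a 95% interval of -0.83 to 0.75. The DHE effect minus the NR4A1 effect was 3.22 (SE 0.46; limma adjusted p = 0.0098), and it lost its call without NR4A1 replicate 2 or either vehicle library (adjusted p up to 0.054 from limma). CCL22 lies at chr16:57392695-57400101 (GRCh37, plus strand) beside CX3CL1 and CCL17. CX3CL1, 6288 bases away, was at most 0.0324 TPM and CCL17 was listed at 0, also with DHE.

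CXCL16, made as a membrane-bound ligand of CXCR6 that also takes up oxidized lipoprotein, rose with DHE. The vehicle libraries held 0.184 and 0.213 TPM of it and the DHE libraries 1.77 and 1.75 TPM. In electroporated cells it stood at 0.541 and 0.299 TPM (GFP RNA) and 0.479 and 0.323 TPM (NR4A1 RNA). The DHE libraries lay above all 6 others, and the GFP and NR4A1 libraries overlapped. The DHE mean in scaled TPM was 8.74 times the vehicle mean (log2 fold change 1.66, SE 0.27; limma adjusted p = 0.0061). The effect of DHE minus that of NR4A1 RNA was 1.71 (limma adjusted p = 0.033), called in 8 of 18 alternatives. CXCL16 (chr17:4636828-4643223, GRCh37, minus strand) shares 76 exonic bases with MED11 and 96 with ZMYND15 of the opposite strand. MED11 was between 9.46 and 11.8 TPM in all libraries, and ZMYND15 was at most 0.151 TPM, the level of DHE replicate 2. The library kit marks the strand, but how the strand was used in quantification is not given in the sources used here.

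CCL5, a ligand of CCR1, was the most abundant chemokine. Without electroporation it stood at 22.8 and 21.1 TPM (vehicle) and 15.6 and 17.5 TPM (DHE). The GFP libraries held 20.8 and 24.3 TPM of it and the NR4A1 libraries 23.2 and 22.7 TPM. The DHE libraries lay below all 6 others. The log2 fold change with DHE was -0.42 (SE 0.06; limma adjusted p = 0.0032), which stayed under the 1.5-fold limit and was not called, and with NR4A1 RNA it was -0.02 (95% interval -0.16 to 0.12). The difference between the effects, -0.40, had a limma adjusted p of 0.025 and was called in 11 of 19 alternatives. CCL28, a ligand of CCR10 made by mucosal epithelium, was measured at 5.72 to 8.38 TPM, and CCL23, a ligand of CCR1, at 0.587 to 1.25 TPM, and neither was called in any of the 4 comparisons. The 43 ligands other than CCL5 summed to 13.2 and 15.0 TPM in GFP libraries, 18.8 and 19.2 in NR4A1 libraries, 12.6 and 12.7 in vehicle libraries, and 27.3 and 31.4 in DHE libraries.

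**Figure D3:**
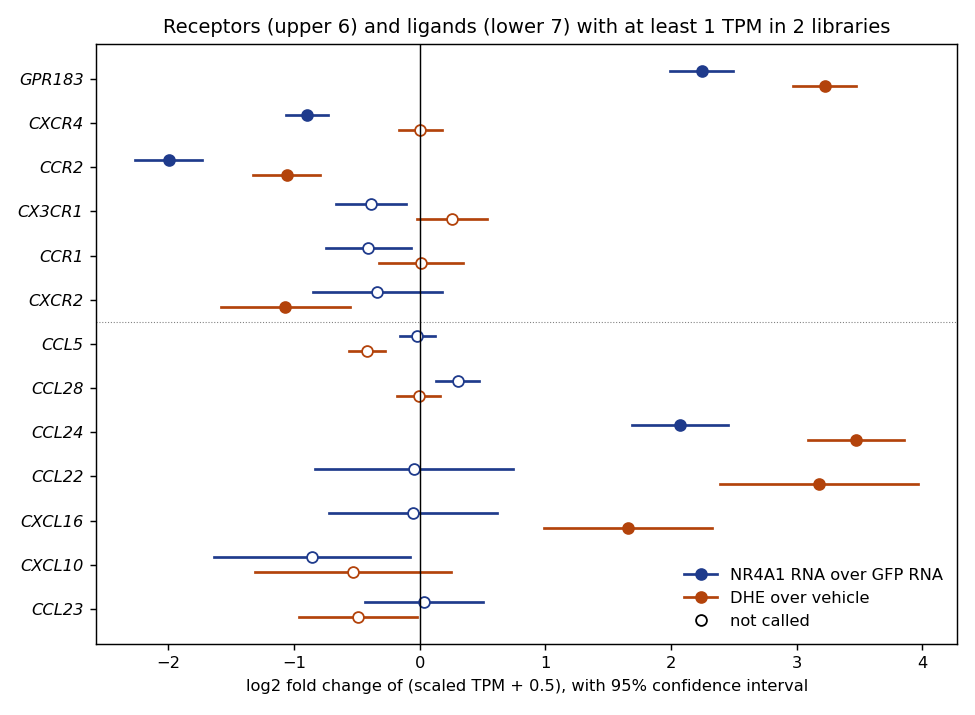
Log2 fold changes of scaled TPM plus 0.5 (points) with 95% confidence intervals (lines) for the 13 members tested, receptors above the dotted line and ligands below it, with filled points for calls. GPR183 and CCL24 lie right of 0 and CCR2 lies left of 0 in both treatments. The intervals of GPR183, CXCR4, CCR2, CX3CR1, CCL5, CCL24, CCL22 and CXCL16 lie apart between the treatments.

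With NR4A1 RNA, 2 of the 13 members tested were called higher (CCL24 and GPR183) against 2.64% of all genes tested, and 2 were called lower (CCR2 and CXCR4) against 2.26%. With DHE, 4 were called higher (CCL22, CCL24, CXCL16 and GPR183) against 9.07%, and 2 were called lower (CCR2 and CXCR2) against 10.1%. As stated above, the filter itself required a difference for CCL22, CCL24, CXCL16 and CXCR2, so the counts in this paragraph support nothing. The median log2 fold change of the 13 was -0.06 with NR4A1 RNA, beside -0.02 for all genes tested, and 0.01 with DHE, beside 0.04. For the difference between the effects, where the adjusted p alone made the call, 7 members were called higher (CCL22, CCL24, CCR2, CX3CR1, CXCL16, CXCR4 and GPR183) against 8.03%, and 1 (CCL5) was called lower against 10.9%. The 2 experiments differ in delivery and in their controls as well as in agent, which cannot be told apart in this difference. Without NR4A1 replicate 2, or without either vehicle library, CXCR4 alone kept its call, and over the alternatives the highest limma adjusted p of the others ran from 0.054 (CCL22) to 0.15 (CX3CR1).

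The controls themselves differed by electroporation and by GFP RNA. Between GFP RNA and vehicle, 0 members were called higher against 0.0139% of all genes tested, and 0 were called lower against 0% by limma. At an unadjusted p under 0.05, 2692 of the genes tested differed. CXCL10, an interferon-induced ligand of CXCR3, held 1.45 and 2.49 TPM in GFP libraries, 0.597 and 1.21 in NR4A1 libraries, 0.599 and 0.398 in vehicle libraries, and 0.133 and 0.250 in DHE libraries. The GFP libraries lay above every other library. Its log2 fold change of GFP RNA over vehicle was 1.35 (SE 0.32), with a limma adjusted p of 0.18, and with NR4A1 RNA over GFP RNA it was -0.85 (limma adjusted p = 0.15). CXCL11, a second interferon-induced CXCR3 ligand 10185 bases from CXCL10 on chromosome 4, held 0.857 and 0.630 TPM in GFP libraries, 0.716 and 0.565 in NR4A1 libraries, 0.198 and 0.212 in vehicle libraries, and 0.129 and 0.105 in DHE libraries. The 4 electroporated libraries lay above the other 4, and with no filter on low values the limma log2 fold change of GFP RNA over vehicle was 0.87 (adjusted p = 0.29). CXCL9, the neighbor on the other side, was at most 0.0244 TPM.

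Interferon response genes were measured beside these ligands. Of 11 listed, 10 were tested, and 0 were called between GFP RNA and vehicle, with a median log2 fold change of 0.96 beside 0.00 for all genes. OASL reached 1 TPM only in GFP libraries, IFIT1 and IFIT2 only in electroporated cells, and IFIT3 in every group but vehicle. For these the filter itself required a level above vehicle, so the median supports nothing. IFIT1 stood at 2.20 and 2.79 TPM in GFP libraries against 0.601 and 0.427 TPM in vehicle libraries, and OASL at 1.28 and 1.40 TPM against 0.187 and 0.128 TPM. With DHE, 5 of the 10 were called higher (OAS1, IRF7, OASL and IFIT2 with the smallest p) against 9.07% of all genes tested. OASL, IFIT2 and IFIT3 are among the 5 and passed the filter only through groups other than vehicle, so this count supports nothing. CXCL10 and CXCL11 were at their lowest with DHE, but neither was called. Against vehicle the limma log2 fold change of CXCL10 was -0.53 (adjusted p = 0.25). That of CXCL11, with no filter on low values, was -0.19 (adjusted p = 0.64). With NR4A1 RNA 1 of the 10 was called, OAS1, which was higher, against 2.64% of all genes tested (log2 fold change 1.29; limma adjusted p = 0.0036). The part of electroporation in the levels of CXCL10 and CXCL11 was not tested.

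Members near or under 1 TPM were described in the same way. CCR7, the receptor of CCL19 and CCL21 on cells that home to lymph nodes, reached 0.539 and 0.583 TPM in DHE libraries against 0.142 and 0.173 TPM in vehicle libraries. With no filter on low values it was called higher with DHE (log2 fold change 0.67; limma adjusted p = 0.024), the only member that this fit added, and with NR4A1 RNA its libraries (0.193 and 0.0859 TPM) overlapped none of the GFP libraries (0.202 and 0.198 TPM) but were not called (limma adjusted p = 0.59). CCL3, a ligand of CCR1, held 0.295 and 0.723 TPM in GFP libraries, 0.748 and 0.814 in NR4A1 libraries, 0.151 and 0.122 in vehicle libraries, and 0.239 and 0.325 in DHE libraries. XCR1, the receptor of XCL1 on cross-presenting dendritic cells, was listed at 0 in both vehicle libraries and was measured at 0.195 and 0.856 TPM with DHE and at 0.110 to 0.467 TPM in electroporated cells. CXCR3, the receptor of CXCL10, stood at 0.291 and 0.333 TPM in NR4A1 libraries against 0.891 and 0.767 TPM in GFP libraries (limma adjusted p = 0.20 with no filter). CXCL8, a ligand of CXCR2 often made by stimulated myeloid cells, was between 0.176 and 0.524 TPM with no separation of groups.

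**Figure D4:**
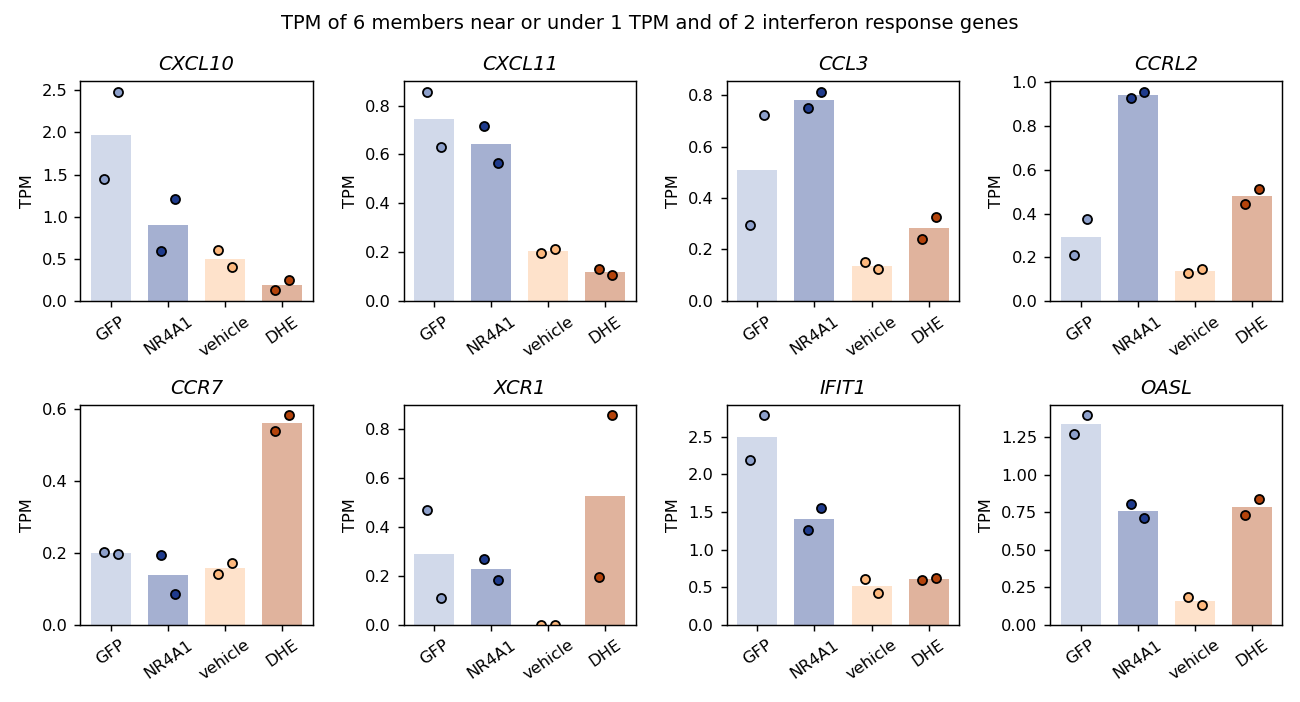
TPM (axis from 0) of 6 members near or under 1 TPM and of the interferon response genes IFIT1 and OASL, with points for the 2 libraries of a group and bars for their mean. CXCL10, CXCL11 and IFIT1 are higher in electroporated cells than with vehicle or DHE, with 1 NR4A1 library of CXCL10 (0.597 TPM) level with a vehicle library (0.599 TPM), CCRL2 is highest with NR4A1 RNA, and CCR7 is highest with DHE.

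Ligands and receptors were then set beside each other. CCR1, at 1.43 to 2.35 TPM, stood beside its ligands CCL5, at 15.6 to 24.3 TPM, and CCL23, at 0.587 to 1.25 TPM. CXCR4 stood beside CXCL12 at 0 and MIF, a cytokine that binds CXCR4 and CXCR2, at 197 to 298 TPM. For CXCR2, CXCL8 was at most 0.524 TPM and CXCL2 at most 0.315 TPM, with CXCL1 at 0. Of these ligands of CXCR4 and CXCR2, MIF alone was above 1 TPM. For CCR2, CCL2 was at most 0.196 TPM and CCL7 at most 0.0628 TPM, and for CX3CR1, CX3CL1 was at most 0.0324 TPM. Among receptors of the ligands tested, CXCR3, which binds CXCL10, was between 0.291 and 1.02 TPM, CCR10, which binds CCL28, was at most 0.243 TPM, CCR4, which binds CCL22, at most 0.169 TPM, CCR3, which binds CCL24, at most 0.133 TPM, and CXCR6, which binds CXCL16, at most 0.0273 TPM. CMKLR1, the receptor of chemerin, was highest in DHE replicate 1, at 0.222 TPM, and chemerin (RARRES2) was detected in that library alone, at 0.126 TPM. By position, the clusters of 6 CXC ligands around CXCL8 and of 6 CC ligands around CCL2 (members less than 1000000 bases apart) held 0 tested members, and the cluster of 11 around CCL5 held 2.

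Among 12 related genes whose symbols fall outside the definition of the members, 11 were in the table and 3 were tested, with 0 called in either treatment. MIF was the most abundant of them, and PF4 and ACKR1 were listed at 0. The fall of MIF with DHE stayed under the 1.5-fold limit (log2 fold change -0.48, limma adjusted p = 0.0021). Other receptors for leukocyte attractants were counted as well: 8 of 18 were tested, with 2 called lower and 0 higher with NR4A1 RNA, and 2 lower and 1 higher with DHE (median log2 fold changes -0.35 and 0.03). Of all genes tested, 2.26% were called lower and 2.64% higher with NR4A1 RNA, and 10.1% lower and 9.07% higher with DHE. S1PR5 and S1PR3, receptors of sphingosine phosphate, were the 2 called lower in both treatments. S1PR5 held 3.15 and 3.73 TPM in GFP libraries, 1.89 and 2.12 in NR4A1 libraries, 4.27 and 4.07 in vehicle libraries, and 2.54 and 2.39 in DHE libraries. PTAFR, the receptor of platelet-activating factor, was called higher with DHE (log2 fold change 0.62; limma adjusted p = 0.032).

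Of 45 listed symbols of genes that carry or limit chemokine receptor signals, 43 were in the table and 40 were tested. Those absent, GRK2 and GRK3, are newer symbols of ADRBK1 and ADRBK2, which were in the table. With NR4A1 RNA 1 was called higher and 3 lower, while DHE gave 4 higher and 4 lower calls. The shares of all genes tested were 2.64% higher and 2.26% lower with NR4A1 RNA and 9.07% higher and 10.1% lower with DHE. The counts with DHE were close to those shares, but 1 gene called higher reached 1 TPM only in DHE libraries. For it the filter itself required a difference, so the count of higher calls with DHE supports nothing. Their median log2 fold changes were -0.10 and 0.08, beside -0.02 and 0.04 for all genes. ARRB1, a beta-arrestin that uncouples and internalizes receptors, fell in both treatments, from 32.6 and 29.8 TPM with GFP RNA to 15.5 and 15.0 TPM with NR4A1 RNA and from 29.7 and 29.1 TPM with vehicle to 11.3 and 15.0 TPM with DHE. With NR4A1 RNA the receptor kinase gene ADRBK2 rose (log2 fold change 1.22; limma adjusted p = 0.0013). It also rose with DHE, under the 1.5-fold limit and so not called (log2 fold change 0.56, limma adjusted p = 0.0019). With DHE the receptor kinase GRK5 (log2 fold change 1.05; limma adjusted p = 9.4e-04) rose, and RGS19, which shortens the signal of inhibitory G proteins, fell by 0.80 on the log2 scale (limma adjusted p = 0.0017).

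Cytokines often made beside chemokines were followed in 16 genes, of which 7 were tested. With NR4A1 RNA 1 was called higher, TNFSF10 (TRAIL), while DHE gave 2 higher calls (IL1RN and TNFSF10) and 2 lower calls (TNF and OSM), with medians of 0.05 and 0.30 on the log2 scale. Of all genes tested, 2.64% were called higher with NR4A1 RNA, and 9.07% higher and 10.1% lower with DHE. TNF, an inducer of many chemokines, stood at 15.9 and 15.4 TPM in vehicle libraries against 2.49 and 2.73 TPM in DHE libraries (log2 fold change -2.39; limma adjusted p = 6.7e-05), and at 21.5 to 23.1 TPM in all 4 electroporated libraries. IL1RN, the antagonist of the interleukin receptor that IL1B binds, rose with DHE from 5.11 and 4.65 TPM to 10.6 and 12.2 TPM.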

How the data were processed

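Paired-end, strand-marked (dUTP) libraries of rRNA-depleted MOLM-14 RNA were sequenced, 2 per group. The authors trimmed reads with Trim Galore, quantified Gencode transcripts with Salmon 0.11.0 and deposited TPM per gene. Their deposited fold changes and p-values (DESeq2) were not used, and 7 ChIP and input samples were not analysed here. TPM hold no counts, so no count test was possible and depth is unknown. TPM were divided by median-of-ratios factors from the 11460 genes at 1 TPM or more in all 8 libraries (factors 0.889 to 1.12). Log2 of scaled TPM plus a pseudocount of 0.5 was fitted with limma 3.58.1 (R 4.3.3; trended variance, 4 group means, 4 residual and 2.07 prior degrees of freedom), keeping genes that reached 1 TPM in 2 or more libraries. Steps were tested on simulated data. Members, lists, named genes and motifs were chosen with earlier results of these data known. Named were members called in any comparison and, per list of related genes, up to 4 called genes with the smallest p. CCR7, CCRL2, CCL3, XCR1, CXCR3, CXCL8, IFIT1, IFIT3, UBAC2, MIF, PF4, ACKR1 and RARRES2 were singled out after their values were seen. The levels of 1 member are not reported here. Alternatives changed the scaling, pseudocount, filter, fold limit, libraries fitted, block and variance estimate. Positions came from GENCODE on GRCh37 (66 of 66 members) and promoters from RefSeq.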

Additional observations from a re-analysis of the deposited data

Results flagged for a closer look

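For 8 of the 13 members tested, the effects of DHE and NR4A1 RNA differed by the limma interaction term, against 18.9% of all genes. The call was an adjusted p under 0.05 over 14367 genes, with 2 libraries per group. Differences are given as the log2 effect of DHE minus that of NR4A1 RNA. The difference was 3.22 for CCL22 and 1.71 for CXCL16, each higher with DHE, as the filter required, and overlapping between NR4A1 and GFP libraries. It was 1.41 for CCL24 and 0.98 for GPR183, which rose in both treatments and more with DHE. It was 0.94 for CCR2, which fell in both treatments and less with DHE. It was 0.90 for CXCR4, which fell with NR4A1 RNA and overlapped with vehicle after DHE. It was 0.65 for CX3CR1 and -0.40 for CCL5, neither of which was called in a treatment on its own. The filter itself required a difference for CCL22 and CXCL16, which reached 1 TPM only in DHE libraries. It did so too for CCL24, which reached 1 TPM only in NR4A1 and DHE libraries. The count of 8 thus supports nothing, and CXCR4 alone was called in every alternative. With 2 libraries per group no test for a single outlying library was possible.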

How the results depend on the processing

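No member changed direction past a threshold under any alternative. The 4 members called with NR4A1 RNA were called in every alternative except that CXCR4 missed with only the 4 libraries compared (3 members). Of the 6 called with DHE, CXCR2 missed without vehicle replicate 1, and CCL22, CXCL16 and CXCR2 were not tested with a filter of 5 TPM (3 members). No fold limit added CCL5 and no filter added CCR7. Among all member values recomputed, 48 differences between the effects lost a call and 192 kept their side of the threshold. The 192 include the fits with no fold limit, whose outcome was fixed for these differences.

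Of the 8 differences between effects, CXCR4 alone was called in every alternative. The count was 3 with no rescaling, 5 with a filter of 5 TPM, 2 with the replicate block (CCL22 and CXCR4), and between 1 and 7 leaving out single libraries (1 without NR4A1 replicate 2, vehicle replicate 1 or vehicle replicate 2, 3 without NR4A1 replicate 1, 5 without DHE replicate 2). The cause was not tested. Over all genes, the 704 called with NR4A1 RNA became 454 with no rescaling, 197 with the replicate block, 1264 with no fold limit, 147 with only the 4 libraries compared, and 89 to 1492 leaving out single libraries. The 2760 called with DHE became 5004 with no fold limit. The 2 called between GFP RNA and vehicle became 5 with equal totals without structural RNA, 37 with a pseudocount of 0.1, 25 with no filter, 4 with robust variance, 0 with the replicate block, with only the 4 libraries or without GFP replicate 1 and DHE replicate 2 together, and 0 to 459 leaving out single libraries. The 2716 differences between effects became 919 with no rescaling, 1619 with no filter, 730 with the replicate block, and 392 to 4257 leaving out single libraries.

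Equal totals without structural RNA moved the median log2 change of all genes from -0.02 to -0.10 with NR4A1 RNA, from 0.04 to 0.10 with DHE, from 0.00 to 0.10 for GFP RNA over vehicle and from 0.02 to 0.17 for the difference. The share of calls that were higher was 54.0% with NR4A1 RNA (41.1% without structural RNA, 63.4% with no rescaling), 47.2% with DHE (56.0%) and 42.5% for the difference (58.9%). Replicate numbers did not pair treated samples with their controls: same-numbered deviations from group means correlated at -0.01 (GFP and NR4A1) and 0.02 (vehicle and DHE). These cover 14367 genes, which are not independent. Between GFP and DHE the correlation was -0.14, and -0.42 over 9141 more abundant genes. GFP replicate 1 and DHE replicate 2 thus tended to deviate in the same direction. Such deviations add up in the difference between effects, and their part there was not tested. Apart from the counts above the block changed no member call in a treatment. Depth is unknown, so how well values near or under 1 TPM are measured is unknown too.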
